A study of Mus musculus with 10 samples.

Results

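The genes described here are Cd36 and 7 other genes of lipid uptake and lipid synthesis, Fabp4, Fabp5, Lpl, Fasn, Scd1, Scd2 and Acaca, taken by symbol as 8 of the 29890 genes of the expression table. They were selected on their log2(TPM + 1) in these same 10 tumors, with the difference between the groups known, so their differences between the groups are given as a description and carry no p-value. The tumors grew under the skin of 7 to 8 week old female C57BL/6J mice after injection of B2905-M4, a mouse melanoma line. In 5 tumors the cells overexpressed Adamts7, a metalloproteinase that cells secrete into the matrix, and in 5 they carried the vector alone, and no tumor received immunotherapy. Of the Adamts7 tumors 2 were taken on day 35 and 3 on day 45, and of the vector tumors 3 were taken on day 45 and 2 on day 50. The labels tie no day to a tumor, so harvest day and group cannot be told apart here. They do not say which promoter drove Adamts7, or whether the cells were a clone or a pool. Each library is bulk tumor, with melanoma cells and the host cells among them, and in bulk RNA fewer cells of a type and less RNA per cell cannot be told apart.

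Mammalian cells obtain fatty acids by uptake or by synthesis. In uptake, lipoprotein lipase frees fatty acids from circulating lipoproteins, membrane proteins such as CD36 pass them inward, and fatty acid-binding proteins carry them inside the cell. In synthesis, acetyl-CoA carboxylase makes malonyl-CoA, fatty acid synthase builds palmitate from it, and stearoyl-CoA desaturases place a double bond in the product. Transcription of the synthesis genes depends largely on sterol regulatory element-binding proteins (SREBPs), which also drive cholesterol synthesis, while Cd36, Fabp4 and Lpl are textbook targets of PPAR-gamma. All 3 are also abundant in adipocytes and can be expressed by macrophages, Cd36 and Fabp4 also by capillary endothelium and Lpl by muscle, and a subcutaneous tumor can hold RNA of each of these.

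Values are TPM (transcript abundance scaled for gene length and to a fixed total within each library), and log2 fold changes are differences of log2(TPM + 1) with Adamts7 minus vector. TPM keeps no read depth, so no counting error can be given, and between 21515 and 23859 genes were above 0 TPM in a tumor. Adamts7 itself reached 74.8 to 96.0 TPM in Adamts7 tumors 1 to 4 but only 18.2 TPM in the one labelled Adamts7 5, against 6.49 to 28.3 TPM in the vector tumors. The tumor labelled Adamts7 5 therefore lay below vector tumors 3 and 5, and every direction below takes its label as given. Vector tumors 3 and 5 also differed from the rest in their marker genes. The mean log2(TPM + 1) of 12 melanocyte markers was 2.38 and 6.09 in them and 7.78 to 9.05 in the other 8 tumors, and that of 10 T cell markers was 5.24 and 4.91 against 1.48 to 2.87. For that reason results are given with and without these 2 tumors. All 8 lipid genes passed the minimum mean of 1 TPM and were among the 15276 genes tested.

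Cd36, which encodes a scavenger receptor that takes up long-chain fatty acids and oxidized lipoproteins, was lower in every Adamts7 tumor than in any vector tumor. Its levels were, for Adamts7 tumors 1 to 5 in order, 5.72, 4.21, 4.09, 3.01 and 3.65 TPM, and for vector tumors 1 to 5, 12.8, 9.73, 23.1, 13.4 and 13.2 TPM. The groups did not overlap, with the highest Adamts7 tumor at 5.72 TPM and the lowest vector tumor at 9.73 TPM. The means were 4.14 ± 1.00 TPM and 14.4 ± 5.05 TPM (SD, n = 5 each), a 3.49-fold ratio of vector to Adamts7. On the log2 scale the difference was -1.55 with a standard error of 0.22, and in the authors' deposited table the log2 fold change of Cd36 was -1.69 with a standard error of 0.25. Cd36 was the only one of the 8 whose groups were apart, while 4.89% of all tested genes had groups that did not overlap, 3.78% with Adamts7 lower and 1.11% with Adamts7 higher.

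The Cd36 difference was smaller when vector tumors 3 and 5 were left out. The other 3 vector tumors had 12.0 ± 1.96 TPM (SD, n = 3), and the log2 fold change was -1.35 with a standard error of 0.20. In the limma fit over all genes, 34 genes or 0.223% were called at an adjusted p under 0.05, 30 lower (0.196%) and 4 higher (0.0262%). Under median-of-ratios scaling and under quantile normalization 20 were lower and 10 higher. Adamts7 itself was not among the 34, with a log2 fold change of 2.21 and a standard error of 0.54 (limma adjusted p = 0.104). Of the 8 lipid genes 1, Cd36, was among the 34, a count that the choice of genes fixes in part. Cd36 was chosen with its difference known, so this call and its losses are a description and not a test of Cd36. Its call was lost in 8 of 20 alternative fits, namely with no filter, with a replicate block, without vector tumors 3 and 5 together, and when Adamts7 tumor 2, 3 or 4 or vector tumor 4 or 5 was left out alone. Without the tumor labelled Adamts7 5 limma called 655 genes in all, Cd36 among them. Of those fits 16 could change the Cd36 estimate, which ran from -1.75 to -1.31.

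The promoter of Cd36 is shown because it is the gene whose groups were apart, and that of Fasn because it varied with the other synthesis genes. These are the 250 bases before the RefSeq start on assembly GRCm38.p6, 5′ to 3′ on the gene's own strand, with capitals for a CCAAT box or a nuclear receptor half-site. The expression files use build mm39, so these positions belong to GRCm38.p6 alone. RefSeq entries were matched for 3 of the 8 genes, Cd36, Fasn and Acaca, with 1 start for each.
Cd36, chr5:17835897-17836146, minus strand: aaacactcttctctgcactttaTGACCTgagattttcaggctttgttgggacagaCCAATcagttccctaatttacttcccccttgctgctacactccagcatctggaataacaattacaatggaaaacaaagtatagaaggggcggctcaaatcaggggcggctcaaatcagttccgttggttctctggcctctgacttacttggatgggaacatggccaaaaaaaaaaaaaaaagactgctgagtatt
Fasn, chr11:120824548-120824797, minus strand: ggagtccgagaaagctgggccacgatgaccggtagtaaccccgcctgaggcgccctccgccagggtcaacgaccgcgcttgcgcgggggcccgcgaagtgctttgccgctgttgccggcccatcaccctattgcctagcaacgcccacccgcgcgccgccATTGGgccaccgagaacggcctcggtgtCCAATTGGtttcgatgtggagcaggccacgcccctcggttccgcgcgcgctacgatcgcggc

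Both strands of these windows were searched for 5 letter patterns. AGGTCA, the half-site of nuclear receptors such as the PPARs, was found once in Cd36, on the opposite strand 228 bases before the start, and in 14.02% of 32851 RefSeq windows of the same length. CCAAT, the box bound by NF-Y, was found once in Cd36, 195 bases before the start, and in 33.8% of all windows. In Fasn it was found 3 times, beginning 90, 62 and 59 bases before the start, the last pair overlapping on opposite strands. CACGTG (an E-box, in 6.02% of all windows), TCACNCCAC (a sterol response element core, in 1.05%) and TGANTCA (an AP-1 site, in 6.75%) were in neither window, and none of the 5 patterns was in that of Acaca. A match describes letters and not a bound site. Only the window of 1 start per gene was searched, so absence from the Acaca window does not cover any other start.

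**Figure D1:**
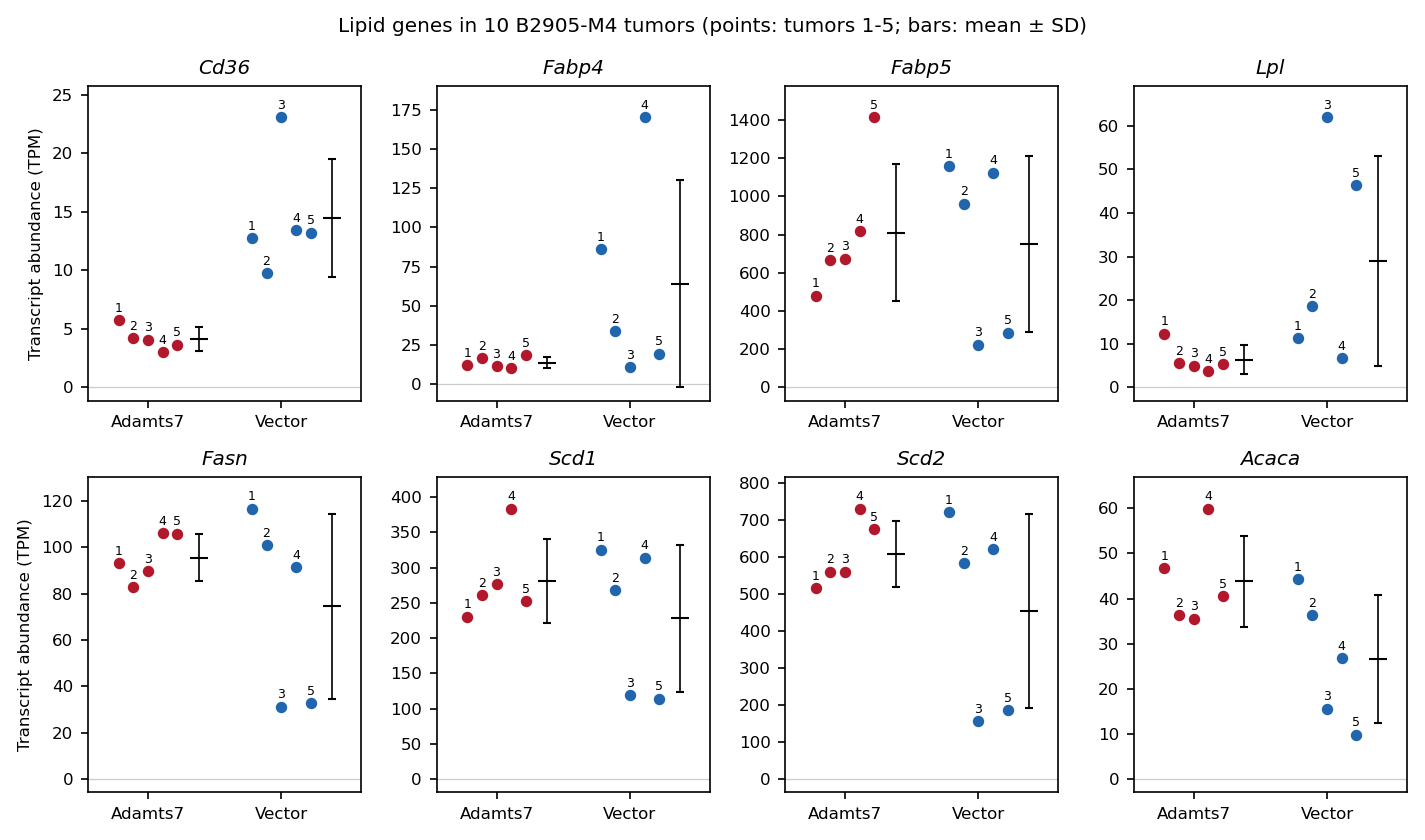
Transcript abundance of the 8 lipid genes in TPM (vertical axes, linear, 1 panel per gene) in Adamts7 (red) and vector (blue) tumors. Points are tumors, numbered 1 to 5, and the black mark and bar beside each group are the mean and SD. Cd36 alone has groups that do not overlap, and vector tumors 3 and 5 are the lowest points of Fabp5, Fasn, Scd1, Scd2 and Acaca and the highest of Lpl.

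Lpl encodes lipoprotein lipase, the enzyme that releases fatty acids from triglyceride-rich lipoproteins. Its levels were, for Adamts7 tumors 1 to 5 in order, 12.3, 5.52, 4.97, 3.72 and 5.38 TPM, and for vector tumors 1 to 5, 11.4, 18.6, 62.0, 6.69 and 46.4 TPM. Vector tumors 3 and 5 were the highest of the 10, and vector tumors 1 and 4 lay below Adamts7 tumor 1, so the groups overlapped. The means were 6.38 ± 3.39 and 29.0 ± 24.0 TPM (SD, n = 5 each), and the log2 fold change was -1.70 with a standard error of 0.55. It was -0.83 with a standard error of 0.38 when vector tumors 3 and 5 were left out.

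Fabp4 encodes the fatty acid-binding protein of adipocytes, which macrophages and capillary endothelial cells also make. Its levels were 12.3, 16.9, 11.7, 10.5 and 18.5 TPM in Adamts7 tumors 1 to 5 and 86.1, 33.8, 11.1, 170 and 19.7 TPM in vector tumors 1 to 5. The Adamts7 tumors were close together, whereas the vector tumors spread widely and vector tumor 3 lay among the Adamts7 tumors. The means were 13.98 ± 3.50 and 64.1 ± 66.0 TPM (SD, n = 5 each), with a log2 fold change of -1.51 and a standard error of 0.62. Without vector tumors 3 and 5 the estimate was -2.45 with a standard error of 0.45, and the groups then did not overlap for Fabp4, as for Cd36. The share of all genes whose groups were apart in that subset was not computed. Without vector tumor 4 alone the Fabp4 estimate was -1.01.

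Markers of adipocytes and of skeletal muscle differed widely between single tumors. Vector tumor 4, with 170 TPM of Fabp4, held 507 TPM summed over 8 skeletal muscle markers, against 2.24 to 10.8 TPM in the other 9 tumors, while its sum of 10 adipocyte markers, 2.62 TPM, was the lowest of the vector tumors. Its Acta1, the muscle actin, was at 128 TPM and its Ckm, the muscle creatine kinase, at 47.5 TPM. Vector tumor 1, with 86.1 TPM of Fabp4, had the highest adipocyte sum, 46.2 TPM, of which the adipokine gene Cfd gave 31.9 TPM, and a muscle sum of 3.48 TPM. The tumor labelled Adamts7 5 came next with an adipocyte sum of 16.03 TPM and had 18.5 TPM of Fabp4, and the other tumors had adipocyte sums of 0.640 to 11.3 TPM. The defining adipocyte genes Adipoq and Plin1 were at most 1.49 and 0.23 TPM in an Adamts7 tumor and at most 3.36 and 2.56 TPM in a vector tumor. The part of muscle and adipose RNA in the Fabp4 difference was not tested.

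Fabp5, the epidermal-type fatty acid-binding protein, ranged from 224 to 1414 TPM over the 10 tumors. Its levels were, for Adamts7 tumors 1 to 5 in order, 480, 667, 675, 817 and 1414 TPM, and for vector tumors 1 to 5, 1158, 962, 224, 1125 and 287 TPM. Vector tumors 3 and 5 were the lowest of the 10 and the tumor labelled Adamts7 5 the highest. The means, 811 ± 358 and 751 ± 459 TPM (SD, n = 5 each), differed by less than either SD, and the log2 fold change of 0.32 had a standard error of 0.50. Without vector tumors 3 and 5 its sign turned, to -0.51 with a standard error of 0.30. The ratio of Fabp5 to Fabp4 was 38.9 to 77.7 in the Adamts7 tumors and 6.62 to 28.5 in the vector tumors, with no overlap. The ratio of Lpl to Gpihbp1, a gene of lipoprotein lipolysis, did not overlap either, at 0.135 to 0.352 and 0.395 to 5.67. Ratios of Scd2 to Scd1 and of Fasn to Acaca overlapped. How many gene pairs do not overlap was not computed.

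The 4 synthesis genes shared one profile, in which vector tumors 3 and 5 were the lowest of all 10 and the remaining vector tumors lay among the Adamts7 tumors, except that vector tumor 1 was above them for Fasn and vector tumor 4 below them for Acaca. The levels of Fasn, which encodes fatty acid synthase, were, for Adamts7 tumors 1 to 5 in order, 93.1, 83.0, 89.6, 106 and 106 TPM, and for vector tumors 1 to 5, 117, 101, 31.3, 91.5 and 32.7 TPM. Its means were 95.5 ± 10.2 and 74.6 ± 39.9 TPM (SD, n = 5 each), with a log2 fold change of 0.55 and a standard error of 0.37. Without vector tumors 3 and 5 the log2 fold change of Fasn was -0.11 with a standard error of 0.12.

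Acaca encodes acetyl-CoA carboxylase 1, the rate-limiting enzyme of fatty acid synthesis. Its levels were, for Adamts7 tumors 1 to 5 in order, 46.7, 36.3, 35.5, 59.9 and 40.5 TPM, and for vector tumors 1 to 5, 44.3, 36.3, 15.6, 26.8 and 9.82 TPM. Of the 5 genes with positive estimates it had the largest, 0.86 with a standard error of 0.36, and the means were 43.8 ± 10.0 and 26.5 ± 14.2 TPM (SD, n = 5 each). It was also the only one of those 5 whose estimate stayed above 0 without vector tumors 3 and 5, at 0.29 with a standard error of 0.21, and there the groups overlapped.

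Scd1 and Scd2 encode stearoyl-CoA desaturases, which make oleate and palmitoleate. The levels of Scd1 were, for Adamts7 tumors 1 to 5 in order, 231, 261, 276, 384 and 253 TPM, and for vector tumors 1 to 5, 326, 268, 119, 314 and 114 TPM. The levels of Scd2 were, for Adamts7 tumors 1 to 5 in order, 517, 561, 562, 731 and 676 TPM, and for vector tumors 1 to 5, 723, 584, 157, 622 and 185 TPM. Both were thus low in vector tumors 3 and 5 alone. Their log2 fold changes were 0.42 with a standard error of 0.32 for Scd1 and 0.68 with a standard error of 0.42 for Scd2. Without those 2 tumors they were -0.13 and -0.084, each below its standard error of 0.16 and 0.14. Scd2 exceeded Scd1 in every tumor, by a ratio of 1.91 to 2.68 in the Adamts7 tumors and 1.32 to 2.22 in the vector tumors, with the lowest ratios in vector tumors 3 and 5. Scd1 and Scd2 are neighbouring, similar genes, so the split of reads between them is itself an estimate.

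**Figure D2:**
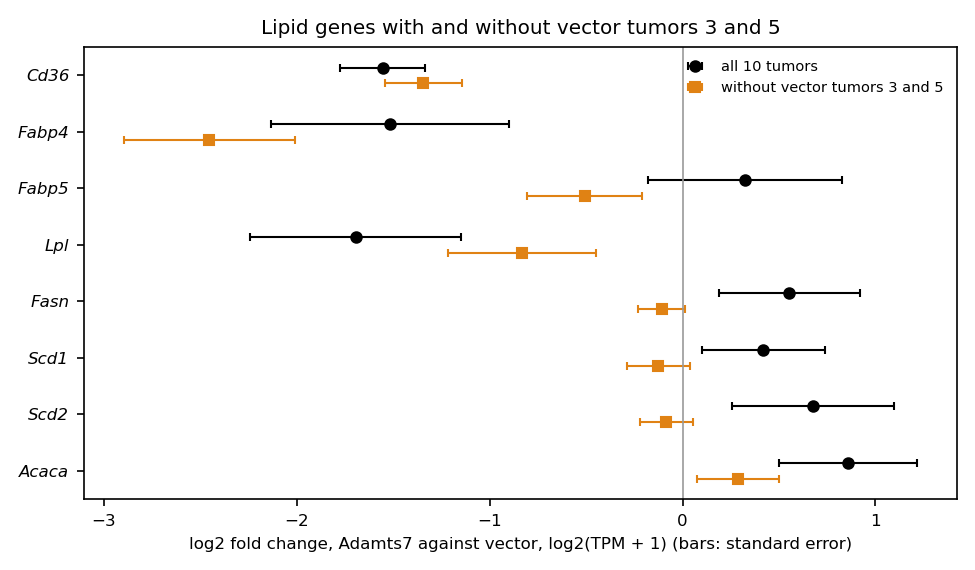
Difference of log2(TPM + 1), Adamts7 minus vector (horizontal axis, with bars of 1 standard error), for the 8 lipid genes with all 10 tumors (black circles) and without vector tumors 3 and 5 (orange squares). Cd36 stays near -1.55 and -1.35, Fabp4 moves further below 0, and Fabp5, Fasn, Scd1 and Scd2 move from above to below 0.

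As a list, 3 of the 8 genes lay below 0 and 5 above 0 on the log2 scale, and their median was 0.37 against -0.10 over all 15276 tested genes. Of those 15276 genes 39.8% lay above 0. Without vector tumors 3 and 5 the median was -0.32, and -0.10 over all genes. Vector tumors 3 and 5 were the lowest pair of tumors for 5 of the 8 genes and the highest pair for 1, Lpl. Among all tested genes 19.0% had these tumors as the lowest pair and 24.1% as the highest pair.

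Other genes of lipid metabolism were read from 8 lists with the 8 genes above left out. Of 133 listed genes 121 were tested, and limma called 0 of them at an adjusted p under 0.05, with 24 at an unadjusted p under 0.05, a level that 20.2% of all tested genes reached. Without the tumor labelled Adamts7 5 limma called 3 of the 121, Dbi, Mlx and G0s2, and 4.29% of all tested genes. In 5 of the 121 the groups did not overlap, against 4.89% of all tested genes. Of 127 with a value in the authors' deposited table, 6 were under an adjusted p of 0.05, namely Hacd3, Lss, Ppara and Lpin1 on the higher side and Nr1h3 and Thrsp on the lower side, against 7.96% of all 18796 genes with an adjusted p there. Of the 20 cholesterol synthesis genes 18 lay above 0 on the log2 scale, the list median was 0.59, and in 18 of the 20 vector tumors 3 and 5 were the lowest pair. Lss, which encodes lanosterol synthase, had 47.4 ± 11.7 TPM in Adamts7 and 23.8 ± 12.0 TPM in vector tumors (SD, n = 5 each, limma adjusted p = 0.151). Fdft1, squalene synthase, and Mvd, a decarboxylase of the mevalonate pathway, had log2 fold changes of 0.77 and 0.87 (limma adjusted p = 0.180 and 0.210). Without vector tumors 3 and 5 the median of the cholesterol list was 0.07, and Lss, Fdft1 and Mvd were at 0.54, 0.33 and 0.30.

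Fatty acid synthesis and desaturation genes followed the same profile. Of 16 tested genes 13 lay above 0 on the log2 scale, their list median was 0.31, vector tumors 3 and 5 were the lowest pair in 12, and the median without them was -0.04. Hacd3, a dehydratase of fatty acid elongation, and Fads3, a desaturase family member, were among the 5 genes whose groups did not overlap, with Hacd3 higher and Fads3 lower in the Adamts7 tumors. Hacd3 was at 34.9 ± 1.82 against 28.4 ± 2.80 TPM and Fads3 at 12.1 ± 2.16 against 17.1 ± 1.84 TPM, Adamts7 first (SD, n = 5 each). Hacd1, another elongation dehydratase, had a log2 fold change of 0.78 (limma adjusted p = 0.149), and those of Hacd3 and Fads3 had adjusted p-values of 0.172 and 0.141.

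Among 19 tested transcriptional regulators of lipid genes 10 lay above 0, and the median was 0.02, or -0.08 without vector tumors 3 and 5. The sign of the median differed in 7 of the 20 alternatives. Thrsp, a lipogenic regulator, was at 0.286 ± 0.171 against 2.10 ± 1.08 TPM, and Mlx, the partner of carbohydrate response factors, at 23.0 ± 2.76 against 31.8 ± 2.12 TPM, Adamts7 first (SD, n = 5 each). Neither overlapped between the groups and neither passed (limma adjusted p = 0.0954 and 0.101). Ppargc1a, a coactivator of mitochondrial genes, had a log2 fold change of 1.603 (limma adjusted p = 0.192), or 0.60 without vector tumors 3 and 5. The genes of the SREBPs and of PPAR-gamma were looked up after their values had been seen. Srebf1 was at 87.8 to 101 TPM in Adamts7 tumors and 55.2 to 124 TPM in vector tumors, Srebf2 at 182 to 269 and 82.1 to 228 TPM, and Pparg at 0.690 to 1.94 and 1.14 to 2.58 TPM. For both SREBP genes vector tumors 3 and 5 were the lowest of the 10.

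The medians of the remaining lists ran from -0.13 to 0.22, and those of 4 of them changed sign when vector tumors 3 and 5 were left out. Fatty acid uptake and binding genes had 7 of 13 above 0, with a median of 0.06, or -0.24 without these tumors. Fabp7, the brain-type binding protein, had 5.96 ± 2.59 against 17.0 ± 12.1 TPM, Adamts7 first (SD, n = 5 each, limma adjusted p = 0.180). In the same list the log2 fold change of Acsl1, an acyl-CoA synthetase, was -0.71, or -0.24 without the 2 tumors, and that of Got2 was 0.63, or 0.29. Lipoprotein lipolysis and uptake genes had 4 of 11 above 0, with a median of -0.13, or 0.06 without the 2 tumors, and its sign differed in 8 of the 20 alternatives, with 0.09 under quantile normalization. The lipase maturation factor Lmf1 had a log2 fold change of 0.62, or 0.22 without the 2 tumors, and Scarb2 had 0.18, or 0.02.

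Triglyceride and lipid droplet genes had 12 of 15 above 0, with a median of 0.22, or -0.10 without vector tumors 3 and 5. Lpin1, a phosphatidate phosphatase and the fifth gene whose groups did not overlap, had 25.1 ± 1.77 against 13.7 ± 6.31 TPM, Adamts7 first (SD, n = 5 each, limma adjusted p = 0.129). Lpin2 and G0s2, an inhibitor of adipose triglyceride lipase, had log2 fold changes of -0.52 and -0.89, or -0.24 and -0.78 without the 2 tumors. Fatty acid oxidation genes had 11 of 20 above 0, with a median of 0.12, or -0.13 without the 2 tumors. Acaa2, Hadha and Etfa had log2 fold changes of 0.45, 0.54 and -0.20, or 0.24, 0.07 and -0.22. Cholesterol efflux genes had 3 of 7 above 0, with a median of -0.06, or -0.27 without the 2 tumors, 0.05 under median-of-ratios scaling and 0.01 under quantile normalization. Abcg1, Nceh1 and Npc1 had log2 fold changes of -0.99, 0.58 and 0.21, or -0.28, -0.018 and -0.078 without the 2 tumors.

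**Figure D3:**
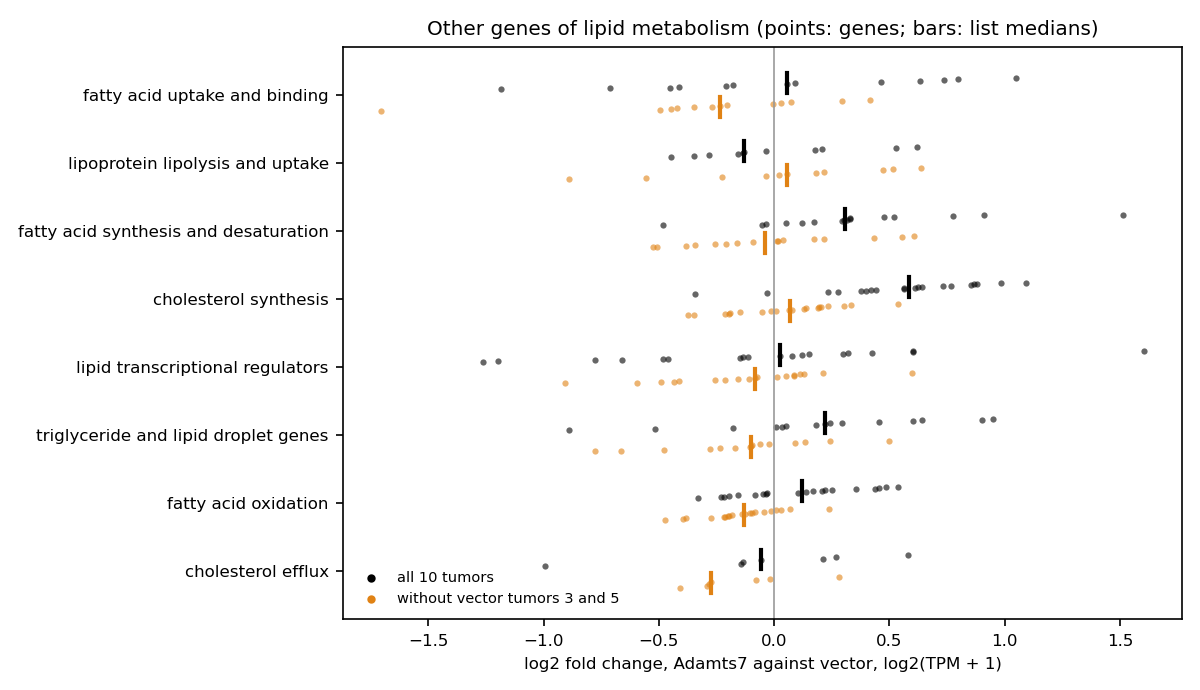
Difference of log2(TPM + 1), Adamts7 minus vector (horizontal axis), for the tested genes of 8 lipid lists without Cd36 and the other 7 genes described above. Each point is a gene and each vertical bar a list median, with all 10 tumors in black and without vector tumors 3 and 5 in orange. The cholesterol synthesis median moves from 0.59 to 0.07 and the fatty acid synthesis median from 0.31 to -0.04.

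Of all tested genes 39.8% were above 0 on the log2 scale, with a median of -0.10. Of 12 endothelial markers 11 were below 0, with a median of -0.38, or 9 of 12 with a median of -0.19 without vector tumors 3 and 5. Their sum was 104 to 242 TPM in Adamts7 tumors and 176 to 271 TPM in vector tumors, with Pecam1 at 15.98 to 38.2 and 20.4 to 40.9 TPM and Cdh5 at 11.7 to 26.1 and 11.5 to 22.4 TPM. Egfl7, named after its values were seen, was the 1 of the 12 whose groups did not overlap, with 18.2 to 48.2 TPM in Adamts7 and 49.0 to 71.7 TPM in vector tumors. Among all tested genes 4.89% had groups that did not overlap. Emcn and Tek, also named after their values were seen, had log2 fold changes of -0.81 and -0.65, with standard errors of 0.24 and 0.28. Among the rest of the 12 the log2 fold changes ran from -0.76 for Cldn5 to 0.24 for Cdh5, with -0.05 for Pecam1. At an unadjusted limma p under 0.05 were 3 of the 12, against 20.2% of all tested genes. Of 12 macrophage markers 11 were below 0, with a median of -0.71, but 4 of 12 with a median of 0.06 without vector tumors 3 and 5. The macrophage sum was 449 to 2126 and 976 to 3468 TPM, with Adgre1 at 10.7 to 60.6 and 21.98 to 94.2 TPM and Csf1r at 13.7 to 79.7 and 27.7 to 133 TPM. Platelets also carry CD36, and the sum of 6 platelet markers was 17.6 to 83.5 and 21.1 to 159 TPM, with Pf4, which macrophages can express as well, at 12.6 to 79.2 and 13.6 to 146 TPM and Itga2b at 0.950 to 2.74 and 0.870 to 3.22 TPM. The part of these cells in the Cd36 difference was not tested.

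Lpl and the synthesis genes moved with markers of vector tumors 3 and 5. Those tumors had the highest macrophage sums, 3468 and 3054 TPM, and the highest T cell sums, 443 and 330 TPM against at most 70.0 TPM elsewhere. Cd3e was at 1.44 to 5.10 TPM for Adamts7 and 6.33 to 40.4 TPM for vector. Cd3d was at 0.650 to 2.53 and 2.00 to 28.7 TPM. The groups did not overlap in 3 of the 10 T cell markers, Cd3e, Cd8a and Cd8b1, against 4.89% of all tested genes. All 10 were below 0 on the log2 scale, with a median of -1.69. Without vector tumors 3 and 5 all 10 were still below 0, with a median of -0.70. Vector tumors 3 and 5 had the lowest melanocyte sums, 325 and 2061 TPM against 8792 to 24407 TPM elsewhere, with Pmel at 3424 to 8390 and 6.13 to 4380 TPM and Tyr at 155 to 496 and 0.210 to 258 TPM. Fibroblast markers summed to 383 to 1982 and 501 to 1652 TPM, with Pdgfra at 2.41 to 11.6 and 4.77 to 11.2 TPM and Dcn at 15.6 to 54.5 and 20.2 to 229 TPM. Pericyte and smooth muscle markers summed to 54.9 to 108 and 57.6 to 129 TPM, with Rgs5 at 14.7 to 29.2 and 18.0 to 33.2 TPM and Pdgfrb at 9.62 to 18.9 and 8.19 to 26.1 TPM. Sebaceous gland markers, of a skin gland rich in Scd1, summed to 161 to 240 and 181 to 303 TPM, most of it Plin2, with Mgst1 at 5.26 to 18.5 and 9.21 to 80.7 TPM and Awat2 at most 0.230 TPM. Keratinocyte markers summed to at most 4.68 TPM, with Krt5 and Krt14 at most 0.1 and 0.11 TPM. The part of cell makeup in the Lpl and synthesis gene values was not tested.

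**Figure D4:**
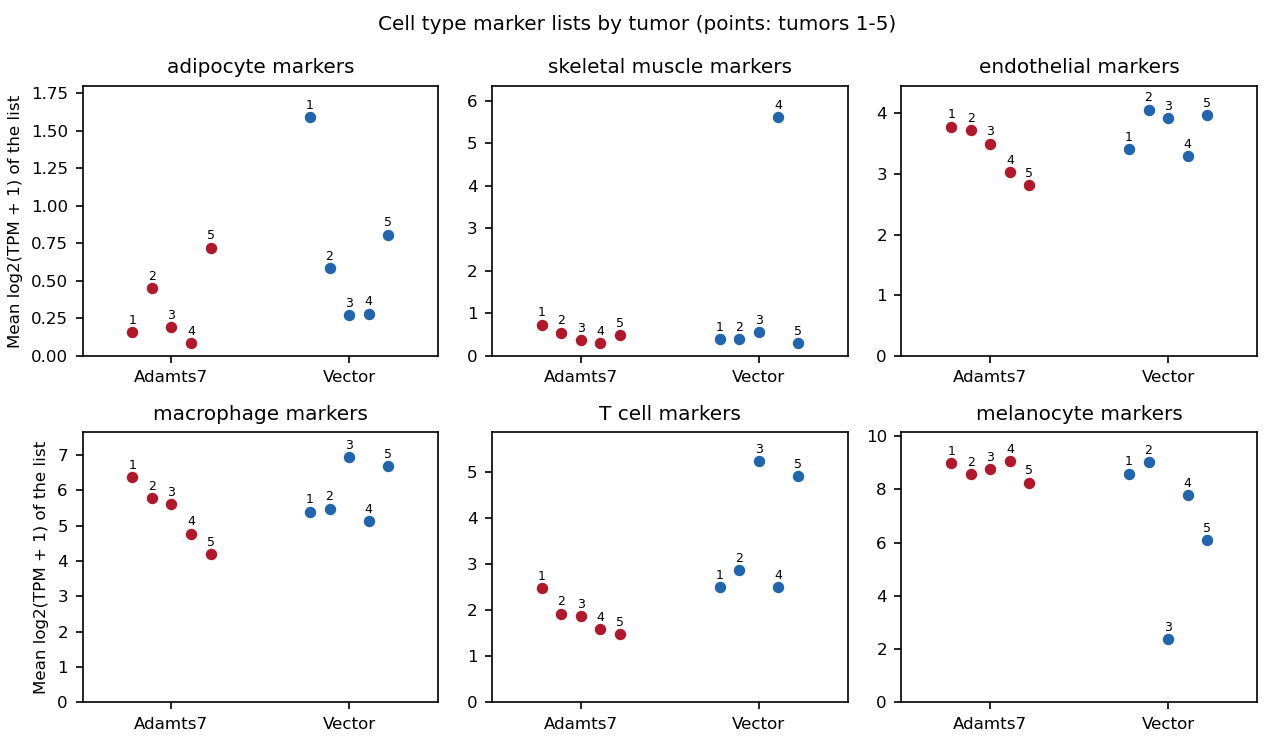
Mean log2(TPM + 1) of 6 marker lists (vertical axes, 1 panel per list) in Adamts7 (red) and vector (blue) tumors, with points numbered by tumor. Vector tumor 4 stands alone for skeletal muscle markers, vector tumor 1 is the highest for adipocyte markers, and vector tumors 3 and 5 are the highest for T cell and macrophage markers and the lowest for melanocyte markers.

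The genes most like Cd36 over the 10 tumors were Cnnm4, Serpinb6b, Pigk, Jdp2 and Parp9. Likeness was Pearson's r of log2(TPM + 1) among genes averaging 5 TPM or more, and since the highest were picked it has no p-value. The r values were 0.98, 0.98, 0.97, 0.96 and 0.96 in that order, and 0.97, 0.98, 0.96, 0.99 and 0.98 over the 8 tumors without vector tumors 3 and 5. In all 5 genes the groups did not overlap, against 4.89% of all tested genes. Picking by r with Cd36, whose own groups were apart, favours this, so it is no separate result. Serpinb6b, an intracellular serpin, was at 1.99 ± 0.763 against 11.1 ± 5.49 TPM, Adamts7 first (SD, n = 5 each). The difference between the groups enters this r. When each tumor was set against its group mean, the nearest genes were Slc43a3, Clic4, Ifngr2, Lats2 and Pnpt1, with r of 0.95, 0.92, 0.91, 0.90 and 0.90, and no gene was in both sets. Without vector tumors 3 and 5 only the first kind of r, with the group difference in it, was computed. For Ifngr2 it was 0.45. Slc43a3, a purine base transporter, was at 20.9 ± 4.01 against 36.8 ± 9.20 TPM, Adamts7 first (SD, n = 5 each).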

How the data were processed

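RNA was measured in 10 tumors, 5 per group, with groups taken from the sample titles. The authors deposited log2(TPM + 1) per gene symbol, made with RSEM on mm39 per the submitters' processing notes. TPM sums were 995286 to 998019 per tumor. The authors' deposited comparison table, made with DESeq2 per the same notes, holds a mean normalized signal, log2 fold changes, a test score and p-values. Its identifiers were paired with symbols through a GRCm38 table, 28805 of 30040 matching. The annotation and any use of molecular identifiers or spike-ins were not given in the sources used here. A deposited repertoire table was left out, since it holds no lipid gene.

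Genes averaging 1 TPM or more entered a linear model of log2(TPM + 1) in limma 3.58.1 (R 4.3.3), with group as the only term, a trended prior variance and two-sided tests with Benjamini-Hochberg adjustment at 0.05. The fit was tested on simulated data with independent noise for each gene. Those data held no shift shared by many genes in single tumors, so they do not cover tumors such as vector tumors 3 and 5. Tumors are separate samples by label, so p-values measure the spread between these tumors, which may be in part technical. Named genes are the 8 genes, called genes of each list or else its 3 with the smallest p, the first 2 genes of each marker list, and 5 nearest to Cd36 by each measure. 1 gene that this rule names is not reported here. The genes and lists were chosen with earlier results of these data known. Reads shared by similar genes are split by an estimate in RSEM. TPM is relative, so a few abundant genes lower all others. Alternatives were other pseudocounts (0.1), filters, scalings, variance models, tumor weights, a replicate block and tumors left out. Summaries came from pandas 2.3.3 (Python 3.11.15).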

Additional observations from a re-analysis of the deposited data

Results flagged for a closer look

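Among 18 groups of 5 tumors examined, for the 8 lipid genes and Adamts7, 3 held a tumor whose gap to its nearest neighbour exceeded 0.710 of the range of the group, a level that chance passes in about 1 of 20 groups. Cd36 was at 23.1 TPM in vector tumor 3, with the next vector tumor at 13.4 TPM. Lpl was at 12.3 TPM in Adamts7 tumor 1, with the next at 5.52 TPM. Adamts7 was at 18.2 TPM in the tumor labelled Adamts7 5, with the next at 74.8 TPM. Without vector tumor 3 the log2 fold change of Cd36 was -1.38, and without Adamts7 tumor 1 that of Lpl was -1.93.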

How the results depend on the processing

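Of the 20 alternatives 16 can change an estimate of the 8 genes, and 10 of those 128 estimates had the other sign. Fabp5 was at -0.44 with tumor weights, -0.032 to 0.56 when 1 tumor was left out (-0.032 without vector tumor 3), -0.51 without vector tumors 3 and 5, and -0.73 also without the tumor labelled Adamts7 5. Fasn, Scd1 and Scd2 were at -0.11, -0.13 and -0.084 without vector tumors 3 and 5 and at -0.15, -0.094 and -0.12 in the last of these fits. The median of the 8 genes was -0.19 with tumor weights and -0.32 and -0.44 in those 2 fits. List medians differed in sign in 34 of the 136 cases where the setting can change them, and 4 moved past the spread between tumors. Called genes numbered 10 without a filter, 1219 with tumor weights, 800 without vector tumors 3 and 5 and the tumor labelled Adamts7 5, and 6 to 655 when 1 tumor was left out, with 655 when the tumor labelled Adamts7 5 was the one. With tumor weights 8 of the 121 tested list genes were called, all lower, beside 1219 of all 15276 tested genes. Without vector tumors 3 and 5 and the tumor labelled Adamts7 5, 10 of the 121 were called, 9 lower and 1 higher, beside 800 of 15276. With 1 tumor left out 0 to 3 list genes were called. The 3 came without the tumor labelled Adamts7 5, beside 655 of 15276. The cause was not tested. With the replicate block limma called 0 genes, with 3028 at an unadjusted p under 0.05, while the estimates, such as -1.55 for Cd36, are the same by construction. In the labels same-numbered tumors share only a number, and whether it marks a batch is not stated. Correlations of their deviations ran from -0.28 to 0.26, and 1 of 5 Adamts7 tumors correlated best with its own number. Quantile normalization moved the median of all genes from -0.10 to 0.04. TPM holds no depth, so low values such as those of Thrsp have unknown counting error.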
